A study of Mus musculus with 20 samples.

Results

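miR-210-3p and miR-210-5p are the 2 mature microRNAs (miRNAs) cut from the opposite arms of a single hairpin, Mir210. They were taken by name and are 2 of the 1545 entries in a table of small RNA from mouse hearts. The 20 libraries are from hearts of mice of the strain C57BL/6J, in 4 groups, and nothing says whether those of a group came from separate animals. In the first, 7 hearts had both myocardial infarction (MI) and CIH (MI+CIH). Of the others, 4 had MI alone, 4 had CIH alone and 5 were sham hearts. CIH is not spelled out in the labels. Given a series title on sleep breathing disorders, it is taken to stand for chronic intermittent hypoxia, in which animals breathe air that is low in oxygen again and again. Age, sex, the days between infarction and harvest, the length of the hypoxia and the part of the heart taken are not given in the sources used here. The labels name the tissue as heart, without a sort of cells.

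miR-210 is the miRNA best known for answering to low oxygen. When oxygen falls, the transcription factor HIF-1 escapes degradation and switches on genes of glycolysis, blood vessel growth and iron handling, and miR-210 is among the RNAs it raises in many cell types. The 3p arm is the strand that is usually loaded into Argonaute. In human cells it represses ISCU, a scaffold protein for the iron-sulphur clusters of mitochondria, and EFNA3, a ligand that limits the formation of vessels. The 5p arm is the partner strand, most of which is usually discarded.

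Mir210 lies on chromosome 7 at chr7:141221384-141221493 on the minus strand (GRCm38.p6, RefSeq), in a region that GENCODE M21 leaves without an overlapping gene. Its neighbours are Rassf7, 2726 bases away on 1 side, and Phrf1, 7291 bases away on the other. The nearest other hairpin in the RefSeq set starts 399317 bases away. The hairpin and both arms are shown because the levels below are counts of reads of these strands. In the arms, capitals mark the seed, bases 2 to 8, which pairs with target messenger RNAs. In the hairpin, capitals mark the arms, 5p before 3p.
miR-210-3p: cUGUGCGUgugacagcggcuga
miR-210-5p: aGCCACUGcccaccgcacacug
Mir210: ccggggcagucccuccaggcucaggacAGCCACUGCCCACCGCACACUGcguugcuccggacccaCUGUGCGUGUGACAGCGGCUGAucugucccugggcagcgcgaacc
The 5p arm occupies bases 28 to 49 of the hairpin and the 3p arm bases 66 to 87. Neither seed occurs in another of the 1679 mature mouse miRNAs of RefSeq, so the reads of the arms belong to seed families of 1 miRNA each. Both arms are rich in G and C, which make up 63.6% of the 3p arm and 68.2% of the 5p arm, against a median of 47.8% over the 306 tested miRNAs with a RefSeq sequence.

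Values are in RPM, the reads of an entry per 1000000 reads of all entries in the same library. The libraries held 1991323 to 18138415 reads, and 1 read was worth 0.0551 to 0.502 RPM. A library with 0 reads of a miRNA allows up to 3 reads, which is 0.165 to 1.51 RPM, for counting error alone. Clustering of whole profiles split the libraries into 3 sets, A, B and C, for which the labels have no name. The number 3 was given to the clustering and not found by it. Pearson's r across miRNAs was 0.951 to 0.996 within a set and 0.877 to 0.970 between sets, so these ranges overlapped. Set A held all CIH and sham hearts with MI+CIH 1 and MI 2. Set B held MI+CIH 2 to 5 with MI 1 and MI 3, and set C held MI+CIH 6 and 7 with MI 4. Comparisons with sham or CIH therefore pit infarcted hearts of all sets against set A alone, so fits that hold a term for the set stand beside them. The heart muscle markers miR-1a-3p, miR-133a-3p, miR-208a-3p and miR-499-5p had reads in all libraries, and they summed to 88403 to 269434 RPM in MI+CIH, 164340 to 300717 RPM in MI, 252929 to 317712 RPM in CIH and 193358 to 278561 RPM in sham hearts.

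miR-210-3p was a minor miRNA of these hearts. Its mean over all libraries was 17.1 RPM, which ranked 234 of the 360 miRNAs tested, and no library was without it. In the 7 MI+CIH hearts the lowest value was 5.52, the median 17.8 and the highest 69.0 RPM. MI hearts had 23.8, 5.94, 13.6 and 17.4 RPM, CIH hearts had 4.47, 4.76, 0.967 and 6.41 RPM, and sham hearts had 11.9, 5.26, 7.33, 4.21 and 4.83 RPM. All infarcted hearts but MI+CIH 4 and MI 2 lay above all CIH and sham hearts, and those 2 lay among them. The means were 33.0 ± 24.9 RPM in MI+CIH (SD, n = 7), 15.2 ± 7.45 in MI (n = 4), 4.15 ± 2.29 in CIH (n = 4) and 6.70 ± 3.12 in sham (n = 5). In this order the neighbours MI+CIH and MI, and sham and CIH, differed by less than the larger of their SDs, and MI and sham by more. In whole tissue, fewer cells of a type and less RNA per cell cannot be told apart.

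Behind these levels stand 10 to 512 reads per heart. The lowest value, 0.967 RPM in CIH 3, rests on 10 reads (95% exact Poisson interval 0.464 to 1.78 RPM). The 5.52 RPM of MI+CIH 4 rest on 11 reads (2.76 to 9.88 RPM), in the shallowest library of all. The highest, 69.0 RPM in MI+CIH 5, rests on 406 reads (62.4 to 76.0 RPM). The hearts of MI+CIH thus spread far more widely than their counting errors. As reads of PCR copies without molecular tags, they give intervals of counting error only.

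miR-210-5p was scarcer still, at 2.37 RPM on average. MI+CIH hearts had a lowest value of 0.756, a median of 5.52 and a highest of 11.4 RPM. MI hearts had 3.60, 0.0690, 2.07 and 1.10 RPM. CIH hearts had 0 reads in 3 hearts and 0.253 RPM, from 3 reads, in CIH 4. Sham hearts had 0.548, 0.270, 0.293 and 0.175 RPM and 0 reads in sham 5. All 7 MI+CIH hearts and 3 of the 4 MI hearts lay above every CIH and sham heart. The means were 5.58 ± 4.33 RPM in MI+CIH (SD, n = 7), 1.71 ± 1.5 in MI (n = 4), 0.0633 ± 0.127 in CIH (n = 4) and 0.257 ± 0.199 in sham (n = 5), and in this arm all neighbours in the order of the means differed by less than the larger of their SDs. The 5p arm passed the filter of at least 5 RPM in at least 4 libraries only through MI+CIH 2 to 5, exactly 4 libraries, so with this filter it could be tested only because it was high there, and its tests among the 360 are given as a description. No MI heart reached 5 RPM.

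**Figure D1:**
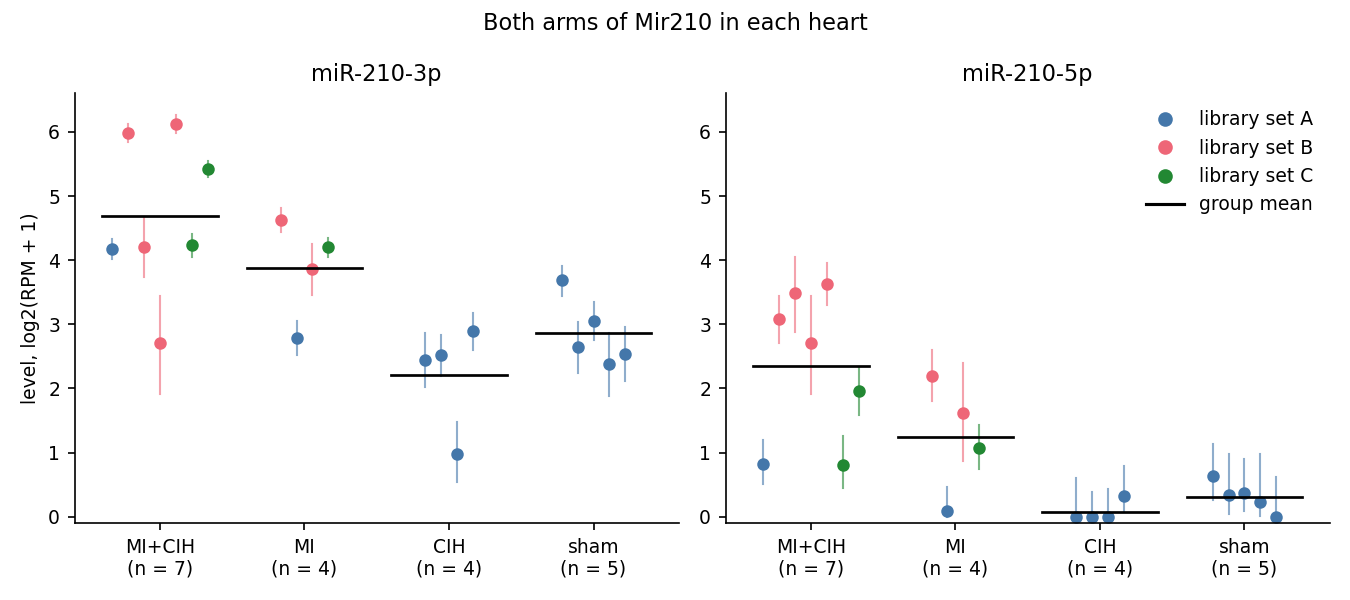
Level of each arm in each heart as log2(RPM + 1), with MI+CIH, MI, CIH and sham hearts from left to right. Points are hearts coloured by library set, thin bars are 95% exact Poisson intervals of the reads, and black lines are group means. CIH and sham points are all of set A and low for both arms, and the 5p values of set B MI+CIH hearts (5.52 to 11.4 RPM) stand highest.

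Both arms had lower means in CIH than in sham hearts, and neither difference passed the test. The difference in log2(RPM + 1) was -0.65 (SE 0.63, 95% interval -1.96 to 0.66) for miR-210-3p and -0.23 (SE 0.57, interval -1.42 to 0.95) for miR-210-5p, each with a limma adjusted p of 0.998. An exact permutation test of the 3p arm gave a two-sided p of 0.206 (0.258 adjusted over the 5 pairwise comparisons), and of the 5p arm 0.103 (0.129 adjusted). CIH 3 was lowest, and without it the 3p difference was -0.24. The median difference of all 360 miRNAs was itself -0.21, and 100 of them had differences above 0. Relative to this median the differences were -0.44 for miR-210-3p and -0.02 for miR-210-5p. Of the 360 miRNAs limma called 0 (0%) in this comparison. Without adjustment 1 had p under 0.05, and the adjusted counts were 0 in edgeR and 1 in DESeq2. Hearts of both groups are all in set A.

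MI hearts had higher means of both arms than sham hearts, and the differences did not pass the test. miR-210-3p differed by 1.01 (SE 0.63, limma adjusted p 0.236) and miR-210-5p by 0.93 (SE 0.57, limma adjusted p 0.234) on the log2(RPM + 1) scale. Exact permutation tests gave a two-sided p of 0.0635 for each arm, or 0.106 adjusted. The median of all 360 miRNAs was itself 0.94 higher in MI, so miR-210-3p lay 0.07 above it and miR-210-5p 0.01 below it. With scaling by TMM, a method that sets most miRNAs equal between libraries, the 3p difference was -0.01, on the other side of 0. With the set as a term the differences were 0.26 for miR-210-3p and -0.32 for miR-210-5p, and in set A alone, where MI 2 is the 1 MI heart, -0.07 and -0.22, so the direction turned for the 5p arm in both and for the 3p arm in set A. The adjusted counts over the 360 miRNAs were 0 in limma (0%; 101 without adjustment), 0 in edgeR and 39 in DESeq2. In 3 of 4 MI hearts each arm lay above every sham heart, and at least 3 of 4 did so for 35.8% of the tested miRNAs (all 4 for 3.61%). MI 2, the MI heart of set A, had 5.94 and 0.0690 RPM of the arms, within the sham range for both. Without MI 2 the differences were 1.37 and 1.31, each with an adjusted exact permutation p of 0.0298. The limma adjusted p was 0.0990 (3p) and 0.0821 (5p) at the lowest over the 20 fits that left out 1 library.

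MI+CIH hearts had the highest means of both arms, and miR-210-3p rose on the RPM scale against sham and against CIH. Against sham the difference was 1.83 (SE 0.55, limma adjusted p 0.0114) for miR-210-3p, and against CIH it was 2.49 (SE 0.59, limma adjusted p 0.00272). miR-210-5p had differences of 2.04 (SE 0.50) against sham and 2.28 (SE 0.54) against CIH. With no filter, where 1416 miRNAs with a read in any library were tested, its limma adjusted p was 0.0111 against sham and 0.0103 against CIH, and 8.97% and 11.2% of those miRNAs were called higher. In RPM the mean of miR-210-3p was 4.93 times that of sham and 7.96 times that of CIH, and 6 of 7 MI+CIH hearts lay above every heart of either group. At least 6 of 7 did so for 35% of the tested miRNAs against sham and 51.1% against CIH. For miR-210-5p all 7 lay above every heart of both groups, which held for 13.6% of the tested miRNAs against sham and 27.8% against CIH. The filter admitted this arm only through its MI+CIH values, so its count cannot be weighed against those shares. Adjusted exact permutation p values were 0.0379 for miR-210-3p and 0.0227 for miR-210-5p in both comparisons. For the 3p arm both went above 0.05, to 0.0530 to 0.0625, without any 1 of sham 2, 4 or 5, CIH 1, 2 or 3, or MI+CIH 2, 5 or 7, and for the 5p arm that against CIH was 0.0625 without any 1 of CIH 1, 2 or 3. These comparisons share the MI+CIH hearts.

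Many miRNAs were called in the same direction. Against sham, limma called 52.2% of the 360 higher and 4.44% lower, and against CIH 54.7% higher and 2.22% lower. The median of all tested miRNAs was 1.39 higher than in sham and 1.51 higher than in CIH, and miR-210-3p lay 0.44 and 0.98 above these medians, at the 65.3rd and 80th percentile of all changes. miR-210-5p lay 0.65 and 0.77 above them, at the 72.5th percentile in both. In rank within a library, which no scaling alters, miR-210-3p stood between 170 and 321 in MI+CIH hearts and between 212 and 258 in sham hearts, and the ranges overlapped.

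With TMM scaling the medians of all changes were near 0 (-0.08 against sham and -0.07 against CIH). TMM factors were 2.29 to 3.02 in set B, 1.06 to 1.18 in set C and 0.433 to 0.813 in set A. On this scale miR-210-3p had 2.36 to 35.5 RPM (median 21.0) in MI+CIH hearts and 6.30 to 18.3 RPM (median 9.53) in sham hearts, and the difference was 0.37 (SE 0.52, limma adjusted p 0.592). Against CIH it was 0.90 (SE 0.56, limma adjusted p 0.235). The call of the 3p arm thus ended in both comparisons under TMM, and likewise under median-of-ratios scaling (0.56, limma adjusted p 0.372, and 1.04, 0.137) and in edgeR (adjusted p 0.344 and 0.160) and DESeq2 (0.159 and 0.0513) on the reads. With TMM 14.2% of all miRNAs were called higher against sham and 10.3% against CIH. The TMM differences of the 5p arm, which the filter admitted through its MI+CIH values, were 1.15 (SE 0.28) against sham and 1.49 (SE 0.30) against CIH.

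**Figure D2:**
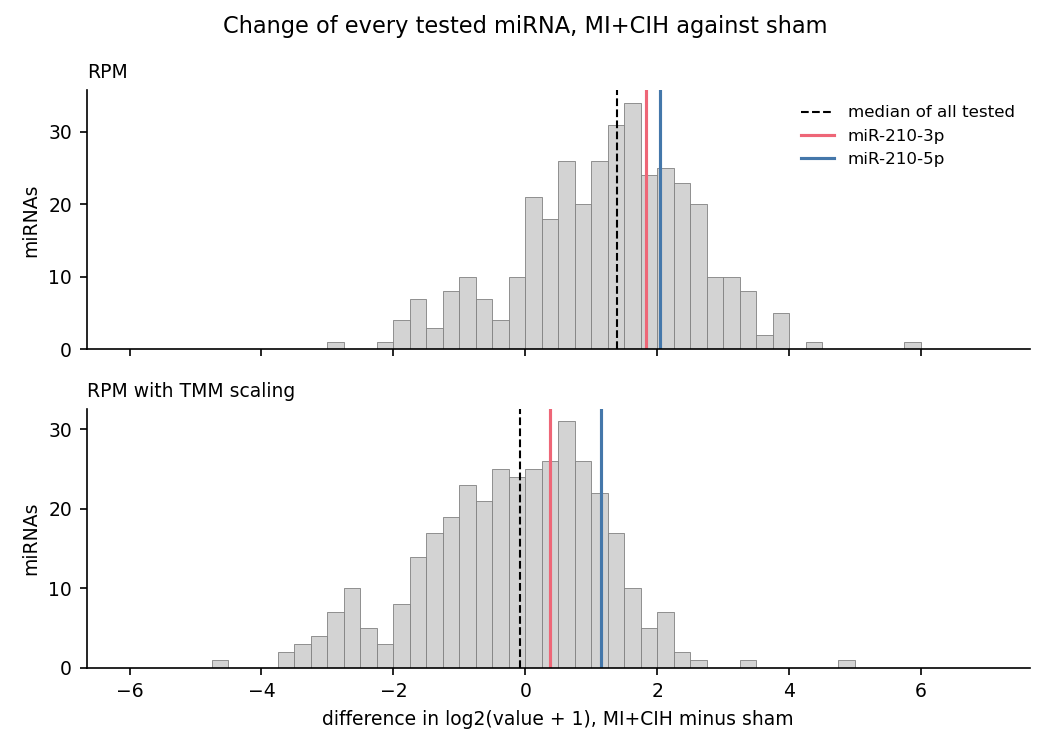
Number of tested miRNAs by their difference in log2(value + 1), MI+CIH minus sham, for RPM (top) and RPM with TMM scaling (bottom). The dashed line is the median of all 360, at 1.39 (top) and -0.08 (bottom), and coloured lines mark miR-210-3p (1.83 and 0.37) and miR-210-5p (2.04 and 1.15), which lie inside the bulk of the changes in both panels.

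With the library set as a term, no call of either arm held. Against sham the differences were 0.98 (SE 0.76, limma adjusted p 0.694) for miR-210-3p and 0.61 (SE 0.38, limma adjusted p 0.680) for miR-210-5p, and against CIH they were 1.63 (SE 0.79) and 0.85 (SE 0.39), each with a limma adjusted p of 0.283. limma then called 0 of all miRNAs in either comparison, with 21 against sham and 62 against CIH at an unadjusted p under 0.05. Within set A, the only set with sham and CIH hearts, MI+CIH 1 had 17.1 RPM of miR-210-3p, from 308 reads (95% exact Poisson interval 15.2 to 19.1 RPM). The CIH and sham hearts ran from 0.967 to 11.9 RPM, and MI 2 had 5.94 RPM. MI+CIH 1 also had the most miR-210-5p in that set, 0.777 RPM from 14 reads (interval 0.425 to 1.3 RPM), against at most 0.548 RPM in sham. Its TMM factor, 0.813, was the largest of set A. Against 18.3 RPM (3p) and 0.847 RPM (5p) in sham 1, the TMM-scaled values were 21.0 and 0.956 RPM in MI+CIH 1. This is 1 heart, and a fit to set A alone gave 1.31 (SE 0.66, limma adjusted p 0.400) and 0.51 (SE 0.30, limma adjusted p 0.420) for the arms against sham. In sets B and C every heart was infarcted, so the set and the infarction cannot be told apart there.

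MI+CIH against MI is the comparison in which all 3 sets hold hearts of both groups. miR-210-3p had a higher mean in MI+CIH, by 0.82 (SE 0.59, 95% interval -0.40 to 2.05, limma adjusted p 0.895) on the log2(RPM + 1) scale, and miR-210-5p by 1.11 (SE 0.54, interval 0.00 to 2.22, limma adjusted p 0.895). Neither passed the test. No miRNA was called: the count was 0 (0%) in limma, edgeR and DESeq2, where 17, 15 and 22 had an unadjusted p under 0.05. Exact permutation tests gave a two-sided p of 0.279 for the 3p arm and 0.139 for the 5p arm. The median of all miRNAs was 0.41 higher in MI+CIH.

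Set by set, the 3p arm was uneven and the 5p arm less so. In set A, miR-210-3p had 17.1 RPM in MI+CIH 1 and 5.94 in MI 2. In set B it had 62.3, 17.5, 5.52 and 69.0 RPM in MI+CIH 2 to 5 and 23.8 and 13.6 RPM in MI 1 and MI 3. In set C it had 17.8 and 42.0 RPM in MI+CIH 6 and 7 and 17.4 RPM in MI 4. Of the 7 MI+CIH hearts, 5 exceeded all MI hearts of their own set, with miR-210-3p between them in MI+CIH 3 and below them in MI+CIH 4. At least 5 of 7 did so for 40.3% of all tested miRNAs. miR-210-5p had 0.777 RPM in MI+CIH 1 and 0.0690 in MI 2 of set A, 7.50, 10.2, 5.52 and 11.4 RPM in MI+CIH 2 to 5 and 3.60 and 2.07 in MI 1 and MI 3 of set B, and 0.756 and 2.87 RPM in MI+CIH 6 and 7 and 1.10 in MI 4 of set C. Here 6 of the 7 exceeded all MI hearts of their own set, the exception being MI+CIH 6. At least 6 of 7 did so for 16.1% of all tested miRNAs. The filter admitted the 5p arm only through MI+CIH 2 to 5, and no MI heart reached 5 RPM. This count is thus a description and cannot be weighed against that share. There was 1 MI heart to compare with in set A and in set C.

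Exchanging the MI+CIH and MI labels only within sets allows 90 arrangements. The unadjusted exact permutation p was 0.322 for miR-210-3p (within-set difference 0.72, two-sided) and 0.0333 for miR-210-5p (0.93, two-sided). limma with the set as a term gave the same differences with adjusted p of 0.507 for miR-210-3p and 0.154 for miR-210-5p, where 0.556% of all miRNAs were called higher. Without MI+CIH 3 and 4, the 2 libraries with the fewest reads, left out after the data were seen, the differences over all sets were 1.32 for miR-210-3p and 0.82 for miR-210-5p, and adjusted exact permutation p values were 0.109 and 0.310. Whether CIH acted differently in infarcted and in sham hearts was asked by the interaction, the CIH difference in infarcted hearts minus that in hearts without infarction. It was 1.48 (SE 0.86, limma adjusted p 0.880) for miR-210-3p and 1.35 (SE 0.78, limma adjusted p 0.880) for miR-210-5p, with 0 miRNAs called (0%) in limma, edgeR and DESeq2, where 14, 13 and 18 had an unadjusted p under 0.05. The median interaction of all 360 miRNAs was itself 0.63, and 292 of them lay above 0. With TMM scaling the interaction was 0.91 for miR-210-3p and 1.10 for miR-210-5p, against a median of -0.01.

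**Figure D3:**
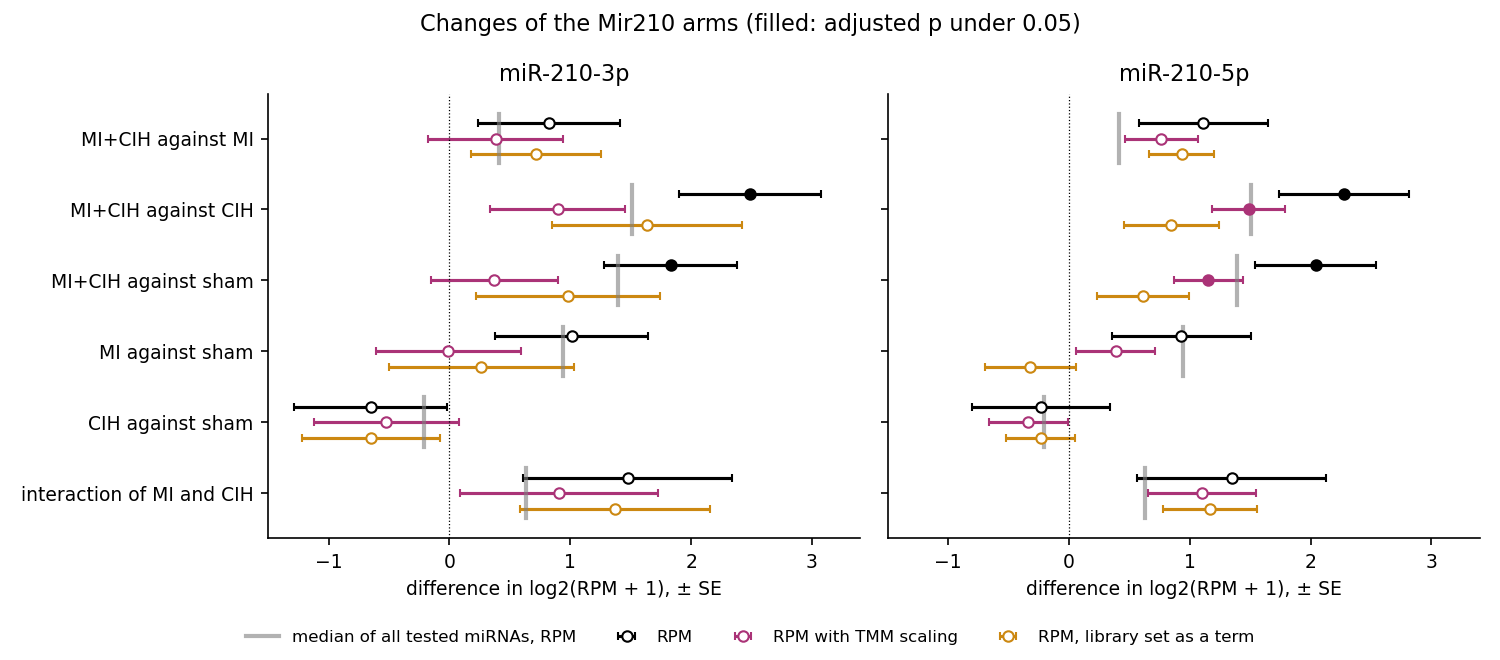
Differences in log2(RPM + 1) of miR-210-3p (left) and miR-210-5p (right) in 5 comparisons and the interaction, with SE from limma, for RPM, for RPM with TMM scaling and for RPM with the library set as a term. Filled points have an adjusted p under 0.05 and grey bars are medians of all tested miRNAs on the RPM scale, such as 1.39 in MI+CIH against sham. Filled points stand only in MI+CIH against CIH and against sham, and with the set as a term none is filled. Those of miR-210-5p are a description, as the filter admitted this arm only through its MI+CIH values.

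The balance of the arms was set apart by 2 shallow MI+CIH libraries. The 5p share of the reads of both arms was 4.07% at the lowest, 10.7% at the median and 50.0% at the highest in MI+CIH hearts. It was 13.1%, 1.15%, 13.2% and 5.95% in MI hearts, 0% in 3 CIH hearts and 3.8% in the other, and 4.41%, 4.88%, 3.85%, 4% and 0% in sham hearts. MI+CIH 3 had 21 of 57 reads on the 5p arm (36.8%, 95% exact Clopper-Pearson interval 24.4% to 50.7%) and MI+CIH 4 had 11 of 22 (50.0%, 28.2% to 71.8%). Their 5p levels, 10.2 and 5.52 RPM, were like those of the other MI+CIH hearts of set B, and their 3p levels were lower, 17.5 and 5.52 RPM against 62.3 and 69.0 RPM. The other 4 libraries of set B, of both groups, had 10.7% to 14.2%. Set C had 4.07% to 6.40% and set A 0% to 4.88%.

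Between groups the shares overlapped and no difference passed a test. They averaged 18.1% ± 18.1 in MI+CIH (SD, n = 7), 8.36% ± 5.89 in MI (n = 4), 0.949% ± 1.90 in CIH (n = 4) and 3.43% ± 1.96 in sham (n = 5), and exact permutation tests gave adjusted p of 0.336 for MI+CIH against MI, 0.141 for MI+CIH against CIH and against sham, 0.198 for MI against sham and 0.141 for CIH against sham. Without MI+CIH 3 and 4 the difference between MI+CIH and MI was -0.42 percentage points, on the other side of 0. Arm balance moved with the library set for other hairpins too: of 133 hairpins with at least 20 reads of both arms together in every library, 17 had a 5p share above set A in every library of set B and 14 below it. The part of the set in the share of Mir210 was not tested.

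**Figure D4:**
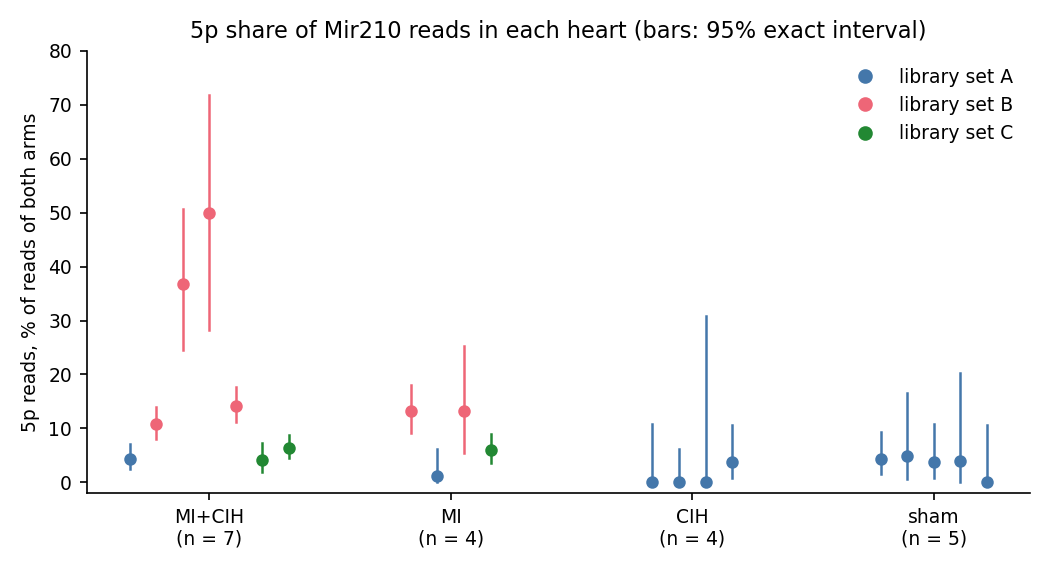
Share of the 5p arm in the reads of both Mir210 arms in each heart, in percent, with 95% exact Clopper-Pearson intervals, coloured by library set. MI+CIH 3 (36.8%) and MI+CIH 4 (50.0%) stand above all others, and every other heart is at or below 14.2%.

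Base composition also moved with the sets. Between set B and set A the median difference in log2(RPM + 1) was 0.72 for the 102 miRNAs poorest in G and C, 1.70 for the next 102 and 2.71 for the 102 richest, and Pearson's r across the 306 miRNAs, which share their libraries, was 0.493. miR-210-3p had a difference of 1.85 between set B and set A, near the median of all tested miRNAs, 1.92, and below that of the 102 richest, to which it belongs. miR-210-5p had 2.53. The part of base composition in the group differences was not tested.

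Among other cell types, the 5 leukocyte markers (miR-223-3p, miR-142a-3p, miR-142a-5p, miR-150-5p and miR-155-5p) summed to 361 to 1930 RPM in MI+CIH, 207 to 1599 RPM in MI, 248 to 505 RPM in CIH and 281 to 652 RPM in sham hearts, and only miR-142a-3p was at 0 in a library. The 4 fibroblast markers (miR-199a-5p, miR-199a-3p, miR-214-3p and miR-21a-5p) summed to 10151 to 109814 RPM in MI+CIH, 11667 to 22276 in MI, 13512 to 17143 in CIH and 18264 to 102414 in sham hearts, with none at 0. By library set, the leukocyte markers summed to 1209 to 1930 RPM in set B, 325 to 640 in set C and 207 to 652 in set A, and the heart muscle markers to 88403 to 184642 in set B, 241459 to 295409 in set C and 183298 to 317712 in set A. In MI+CIH against sham 3 of the 4 heart muscle markers fell and 1 rose on the RPM scale. On that scale 3 of 4 fibroblast and 2 of 5 leukocyte markers rose, where 52.2% of all miRNAs were called higher and 4.44% lower. With TMM scaling 3 of 4 heart muscle markers fell, 1 of 4 fibroblast markers rose, and of 5 leukocyte markers 1 rose and 1 fell. There 114 of all 360 miRNAs were called in either direction, 51 of them (14.2%) higher. The part of these markers in the levels of the arms was not tested.

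The counts of other miRNAs tied to oxygen depended on the scale, as that of miR-210-3p did. Among these were 11 reported to be induced by low oxygen in human cell lines. In MI+CIH against sham 7 of the 11 rose and 0 fell on the RPM scale, where 52.2% of all miRNAs were called higher. The median difference was 1.12 against 1.39 for all miRNAs. With TMM scaling 0 rose and 2 fell, with a median of -0.50 against -0.08. There 114 of all 360 miRNAs were called in either direction, 51 of them higher. Against CIH 8 rose and 0 fell on the RPM scale, where 54.7% of all were called higher, with a median of 1.28 against 1.51 for all. With TMM scaling 0 rose and 2 fell, with a median of -0.54 against -0.07. There 90 of all 360 were called in either direction, 37 of them higher. With the set as a term 0 passed in either. In MI+CIH against MI, MI against sham and CIH against sham, 0 of them passed in limma, as did 0 of all miRNAs. miR-103-3p, which acts on Dicer and on metabolism, averaged 1164 ± 436 RPM in MI+CIH (SD, n = 7) and 347 ± 84.0 RPM in sham hearts (n = 5), a difference of 1.68 (SE 0.42, limma adjusted p 0.00341) that was 0.07 with TMM scaling. miR-23b-3p averaged 2834 ± 2366 RPM in MI+CIH and 389 ± 135 RPM in sham, and rose by 2.22 (SE 0.75, limma adjusted p 0.0185) on the RPM scale, against 0.60 (limma adjusted p 0.271) with TMM. miR-27a-3p differed in the other direction, by -1.25 (SE 0.60, limma adjusted p 0.0805) on the RPM scale, and fell by 2.87 (limma adjusted p 0.00952) with TMM.

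Of 7 miRNAs reported to act on HIF-1alpha, the oxygen-regulated subunit of HIF-1, or on its turnover, 5 passed the filter, and miR-18a-5p and miR-20b-5p did not. Against sham 2 of the 5 rose in MI+CIH and 0 fell on the RPM scale, where 52.2% of all miRNAs were called higher. The median was 0.91 against 1.39 for all. With TMM scaling 1 rose and 0 fell, where 14.2% of all were called higher, with a median of -0.62 against -0.08. Against CIH 3 rose and 0 fell on the RPM scale, where 54.7% of all were called higher. With TMM 0 rose and 0 fell, where 10.3% of all were called higher. miR-155-5p, an inflammatory miRNA, averaged 212 ± 160 RPM in MI+CIH (SD, n = 7) and 22.2 ± 5.78 RPM in sham hearts (n = 5), a difference of 2.72 (SE 0.68, limma adjusted p 0.00341), and of 1.13 (limma adjusted p 0.0454) with TMM. miR-199a-5p, which represses Hif1a in rat heart muscle cells, averaged 774 ± 648 and 183 ± 229 RPM in the same groups and differed by 2.13 (SE 0.75, limma adjusted p 0.0224), and by 0.52 (limma adjusted p 0.662) with TMM. In CIH against sham all 5 had differences below 0, where only 100 of all 360 miRNAs had differences above 0. The median of the 5 was -0.56 against -0.21 for all, and 0 passed in limma.

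The miRNAs whose pattern was most like that of miR-210-3p over the 20 libraries were miR-34a-5p, whose gene p53 switches on (Pearson's r 0.944), miR-409-5p (0.927), miR-31-5p (0.922), miR-494-3p (0.919) and miR-345-5p (0.918), on log2(RPM + 1). These libraries share their scale and sets, and the median r of the 359 other tested miRNAs was 0.554. miR-34a-5p averaged 80.7 RPM in MI+CIH, 65.6 in MI, 17.4 in CIH and 24.9 RPM in sham hearts. After subtracting the mean of each set the most alike were miR-322-5p (r 0.934), miR-148a-5p (0.930), miR-340-5p (0.924), miR-199a-5p (0.913) and miR-199b-5p (0.903), with a median r of 0.296, and no miRNA was in both groups of 5. The other arm, miR-210-5p, had an r of 0.758 before this step and 0.598 after it, at rank 56 and rank 117 of 359.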

How the data were processed

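Small RNA was sequenced from 20 hearts, and per the labels' protocols libraries were made from Trizol RNA with a NEBNext small RNA kit. The deposited table names its values TPM. By the values they are RPM computed by the authors: columns sum to 1000000, and 100% of values come out as whole reads (within 0.05) once divided by the value of 1 read, which gave back the reads. The submitters' processing notes name mm10, Bowtie and DESeq 1.8.3 without saying what each did. Counting rules are not given in the sources used here. As nothing says that samples of a group came from separate animals, p-values measure the spread between these samples.

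limma 3.58.1 (R 4.3.3) with a trend was fitted to log2(RPM + 1), two-sided, with 4 group means estimated from the 20 libraries together, which leaves 16 residual degrees of freedom. Tested were the 360 miRNAs that reached 5 RPM in 4 libraries or more. Each of the 6 contrasts had its own Benjamini-Hochberg adjustment over the 360. A miRNA "rose" or "fell" where that gave under 0.05. Differences on this scale understate changes of scarce miRNAs. Exact permutation tests compared mean log2(RPM + 1) or mean 5p share, adjusted over 5 comparisons per measure. Those with labels exchanged within sets were not adjusted. edgeR 4.0.16 (quasi-likelihood) and DESeq2 1.42.0 were run on the reads. Fits were tested on simulated data. Library sets came from average-linkage clustering on 1 minus Pearson's r, cut into a fixed number of 3 sets. Fits that left out libraries tested the same 360. Other scalings, filters, pseudocounts and fits with a set term or replicate block were tried, and 2 alternatives, without MI+CIH 3 and 4 and with sets B and C alone, were added after the data were seen.

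The members, lists and tests were chosen with earlier results of these data known. Named miRNAs are the members, at most 4 per list (those past the threshold, otherwise the most abundant) and the 5 most like miR-210-3p. miR-27a-3p was chosen after its values were seen.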

Additional observations from a re-analysis of the deposited data

Results flagged for a closer look

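In 3 of 12 sets of values, formed by a group of hearts and a measure, a single heart stood apart by its gap to the nearest other relative to the whole range (Dixon's test, 95% level). Chance gives this in about 1 of 20 groups of continuous values. That rate does not apply to the CIH hearts, where 3 hearts at 0 make any other value in the fourth stand apart. Among CIH hearts, CIH 4 had 0.253 RPM of miR-210-5p, from 3 reads, and the other 3 had 0 reads. These reads also gave CIH 4 a 5p share of 3.8%, against 0% in the others. Among sham hearts, sham 5 had a 5p share of 0%, 0 of 33 reads, which allows up to 9.09%, while the other 4 had 3.85% to 4.88%.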

How the results depend on the processing

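In MI+CIH against CIH the difference of miR-210-3p was no longer a call with median-of-ratios scaling (1.04), TMM (0.90), the set as a term (1.63), set A alone (1.97), edgeR (1.15) and DESeq2 (1.27), and that of miR-210-5p, which the filter admitted through its MI+CIH values, with the set as a term (0.85) and set A alone (0.75). Against sham the same held of miR-210-3p (0.56, 0.37, 0.98, 1.31, 0.67 and 0.86) and miR-210-5p (0.61 and 0.51). In MI against sham the sign turned for miR-210-3p with TMM (-0.0100), set A alone (-0.0692) and edgeR (-0.0174). For miR-210-5p it turned with the set as a term (-0.32) and set A alone (-0.22). Sample quality weights made both a call (1.48 and 1.47). With these weights limma called 227 of the 360 miRNAs, so a call sets neither arm apart. That of the 5p arm is a description, given how the filter admitted it. The cause of the turned signs and of these calls was not tested. The 5p share difference turned to -0.42 percentage points in MI+CIH against MI without MI+CIH 3 and 4, and to -2.28 in MI against sham in set A. Exact tests of miR-210-5p lost a call in MI+CIH against CIH without MI+CIH 3 and 4 (1.98). In MI+CIH against MI with labels exchanged within sets (0.93), the exact permutation p of 0.0333 was not adjusted, so it is not counted as a call.

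Leaving out 1 library at a time ended no limma call of miR-210-3p. No call of miR-210-5p ended either, but these fits kept the miRNAs that the filter had passed on all libraries. The filter asks for 4 libraries, and this arm met it in MI+CIH 2 to 5 alone. Without any 1 of these it would not have been tested, so its calls are a description here too. The differences of miR-210-3p ran from 2.07 to 2.82 in MI+CIH against CIH, 1.59 to 2.17 against sham and 0.76 to 1.37 in MI against sham, and those of miR-210-5p from 2.07 to 2.54, 1.83 to 2.30 and 0.61 to 1.31. The adjusted exact permutation p of miR-210-3p then ran from 0.0119 to 0.0625 against CIH and 0.0108 to 0.0595 against sham, that of miR-210-5p against CIH from 0.0227 to 0.0625, and those of MI against sham from 0.0298 to 0.217 (3p) and 0.174 (5p). Of 25 pairs of same-numbered hearts, 10 had deviations correlated above 0.1 (r -0.711 to 0.867). Hearts of different numbers were not compared, so these values cannot decide whether the numbers pair the hearts. With the replicate block the differences in MI+CIH against MI were 0.62 for miR-210-3p and 1.43 for miR-210-5p, and no call of an arm changed. Over all settings the limma count was 0 to 3 in MI+CIH against MI, and in MI+CIH against sham 204 as reported, 114 with TMM, 112 with median-of-ratios scaling, 135 with no filter, 126 without MI+CIH 3 and 4, 2 in set A alone and 0 with the set as a term, where edgeR called 85 and DESeq2 146. Against CIH it was 205 as reported, 90 with TMM, 97 with median-of-ratios scaling and 0 with the set as a term or in set A alone, with 75 in edgeR and 133 in DESeq2. At its highest over the settings the limma count was 297 against sham and 301 against CIH. With 1 library left out it reached 239 against sham and 234 against CIH. In MI against sham, 0 as reported, it was 113 without MI 2, 114 without sham 1 and MI 2, 31 without MI+CIH 1, 13 without MI+CIH 3 and 4, and 227 with quality weights. With Spearman's rho 3 of the 5 most alike miRNAs were shared, before and after subtracting set means. Depth limits the 5p arm, with 0 to 67 reads per heart.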
